A study of Mus musculus with 4 samples.

Results

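The genes described here are the chemokines and chemokine receptors of cultured mouse oligodendroglial cells with and without Zfp276. They were taken by name, as every entry of the count tables whose symbol consists of Ccl, Cxcl, Ccr or Cxcr, a number and at most 1 further letter. This gave 59 of 53465 entries under 53 symbols, because Ccl19, Ccl21a, Ccl21b, Ccl21c and Ccl27a were listed more than once. Of the 59 entries, 27 had at least 10 counts in a library, 16 had between 1 and 9 counts in their highest library, and 16 had no count in any library.

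Chemokines are small secreted proteins that attract cells along a gradient, and they are grouped by the spacing of their first cysteines into CC ligands (Ccl) and CXC ligands (Cxcl). They act on receptors that span the membrane and couple to inhibitory G proteins (Ccr and Cxcr), and many ligands share a receptor. In the brain, microglia, astrocytes and cells of the vessels are known sources of inflammatory chemokines, and Cxcl12 with its receptor Cxcr4 is known to guide oligodendrocyte precursors.

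RNA-Seq was done on primary mouse oligodendroglial cells (OGCs) after 3 days of differentiation, and the comparison asks which transcripts differ when Zfp276, a zinc finger transcription factor, is deleted. The ctrl group (n = 2) was Zfp276 flox/flox and the Zfp276cko group (n = 2) was Sox10::Cre tg; Zfp276 flox/flox, so both groups carried the floxed allele and the Cre transgene was present in the latter only. Each culture pooled cells from the forebrain of 3 mice aged 2 to 4 days on a mixed C3H and C57Bl/6J background, prepared by way of mixed glia, shake-off and depletion of microglia, and grown without mitogens and with CNTF. Sox10::Cre is a BAC transgene described as acting in the oligodendroglial lineage from the precursor stage on, and per the methods a Rosa26 reporter allele with a stop cassette and tdTomato had been crossed into mice used for such cultures.

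The libraries held between 21068322 and 26599809 counted reads. Counts given below are normalized, meaning scaled to the mean effective library size (TMM). Zfp276 itself reached 1648 and 2230 normalized counts in the ctrl replicates but 490 and 503 in the Zfp276cko replicates. The ctrl libraries stood apart from each other. Of 14324 tested genes with a mean of at least 20 normalized counts, 12.7% differed 2-fold or more within ctrl, and 0.307% did so within Zfp276cko. The 10 oligodendroglial markers summed to between 152561 and 284597 normalized counts per library, and 8 had their 2 lowest values in the Zfp276cko libraries. Of all genes with a mean of at least 20, 24.8% did so. Transcripts of other cells were present as well. The 12 microglial markers, all with a mean of at least 20, summed to 57452 and 28620 normalized counts in ctrl and to 42501 and 44064 in Zfp276cko cells. In 2 of them the Zfp276cko libraries lay above both ctrl libraries (against 26.4% of all genes at this mean), and in 0 below both. Their log2 fold changes ranged from −1.12 (Csf1r) to 0.99 (Cd68). The 8 astrocyte markers summed to between 27696 and 34411, with Gjb6 at 0. The 6 markers of fibroblasts and mural cells summed to 5662 in ctrl replicate 1 and to between 157 and 217 in the other 3 libraries. The 6 neuronal markers summed to between 14663 and 22936, mostly Map2. Snap25, Stmn2, Syt1 and Rbfox3 had 35.6, 26.1, 33.2 and 14.2 normalized counts in ctrl replicate 1. In ctrl replicate 2 they had 484, 390, 874 and 197, and the Zfp276cko libraries also exceeded ctrl replicate 1. The 6 endothelial markers summed to between 179 and 296, with Cldn5 at 0. Of 7 markers of T and B cells, 6 had at most 3 counts in every library, and of 6 markers of neutrophils and monocytes, 5 did.

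Promoter sequences are shown for 6 chemokines, each with a match to the motifs below. They are the most abundant ligand (Ccl3), the ligands with the highest log2 fold changes (Ccl12 and Cxcl10), and the neighbours Cxcl1, Cxcl2 and Cxcl3. Each sequence holds the 250 bases before the RefSeq start (GRCm38.p6), 5′ to 3′ along the gene. Capitals mark the core letters of the interferon-stimulated response element, GAAANNGAA, and the inner letters of an NF-kB site, GGANNTTCC, searched on both strands.
Cxcl10 (chr5:92348890-92349139, minus strand): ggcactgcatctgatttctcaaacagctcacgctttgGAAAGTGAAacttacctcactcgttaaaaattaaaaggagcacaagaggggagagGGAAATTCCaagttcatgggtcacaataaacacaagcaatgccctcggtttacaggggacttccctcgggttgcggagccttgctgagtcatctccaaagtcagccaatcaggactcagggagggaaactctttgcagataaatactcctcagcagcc
Ccl12 (chr11:82101595-82101844, plus strand): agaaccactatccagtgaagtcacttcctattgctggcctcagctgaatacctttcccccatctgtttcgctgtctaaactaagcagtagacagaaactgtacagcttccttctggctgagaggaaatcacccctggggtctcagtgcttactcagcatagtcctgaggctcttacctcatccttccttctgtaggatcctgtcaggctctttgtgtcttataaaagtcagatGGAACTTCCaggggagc
Ccl3 (chr11:83649379-83649628, minus strand): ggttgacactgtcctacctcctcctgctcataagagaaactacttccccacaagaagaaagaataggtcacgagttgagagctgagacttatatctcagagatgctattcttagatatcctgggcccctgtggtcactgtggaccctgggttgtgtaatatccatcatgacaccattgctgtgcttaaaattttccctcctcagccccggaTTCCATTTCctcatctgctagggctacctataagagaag
Cxcl1 (chr5:90890995-90891244, plus strand): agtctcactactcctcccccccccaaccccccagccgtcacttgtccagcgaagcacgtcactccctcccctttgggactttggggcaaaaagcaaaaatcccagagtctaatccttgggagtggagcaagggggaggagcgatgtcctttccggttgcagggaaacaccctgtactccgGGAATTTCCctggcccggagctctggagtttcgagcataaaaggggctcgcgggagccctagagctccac
Cxcl2 (chr5:90903649-90903898, plus strand): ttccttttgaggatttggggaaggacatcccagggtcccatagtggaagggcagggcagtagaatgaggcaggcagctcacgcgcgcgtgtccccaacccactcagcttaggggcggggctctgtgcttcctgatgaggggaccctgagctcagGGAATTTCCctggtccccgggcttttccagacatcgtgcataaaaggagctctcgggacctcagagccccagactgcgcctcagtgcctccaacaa
Cxcl3 (chr5:90785851-90786100, plus strand): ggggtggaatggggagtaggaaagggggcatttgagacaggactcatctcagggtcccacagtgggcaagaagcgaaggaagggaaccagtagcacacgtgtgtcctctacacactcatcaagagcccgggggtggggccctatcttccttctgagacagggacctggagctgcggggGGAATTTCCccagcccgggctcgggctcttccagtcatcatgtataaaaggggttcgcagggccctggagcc

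In Cxcl10 the interferon-stimulated response element letters began 213 bases and the NF-kB letters 158 bases before the start, and they did not overlap. Ccl3 held the former on the opposite strand, 39 bases before its start. Ccl12 held the NF-kB letters 17 bases before its start. The windows of Cxcl1, Cxcl2 and Cxcl3 held an identical match, GGAATTTCC, beginning 70, 96 and 72 bases before the start. Of 44 windows found for 37 member symbols, 8 held GAAANNGAA and 7 held GGANNTTCC. Over 32851 windows of the same length from all genes, the shares were 7.13% and 3.59%. Among the 19 windows of members with a mean of at least 20 normalized counts, 3 held the former and 5 the latter. The windows of Cxcr3, Ccl8 and Cxcl12 held neither, and that of Cxcl14 held GAAANNGAA. No window was found for Ccl2, Ccl4, Ccl5, Ccl7, Cxcl5, Cxcl11 and Cxcl16, among others. A match describes the letters of a window and does not show a bound site.

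Of the 59 entries, 23 had a mean of at least 20 normalized counts, namely 11 CC ligands, 8 CXC ligands, 2 CC receptors and 2 CXC receptors. In 13 of these 23 genes the Zfp276cko libraries both exceeded the ctrl libraries (56.5%, against 26.4% of all genes at this level) and in 2 genes both were lower (8.70%, against 24.8%). The 13 were 8 CC ligands, 4 CXC ligands and Cxcr3, and the 2 were Cxcl14 and Ccr1. Among these, Ccl8, Ccl27a and Cxcr3 had ctrl means under 20 (6.50, 19.3 and 2.88). They reached this level only through the Zfp276cko libraries, and Ccr1 did so only through ctrl replicate 1. Their place in these counts is a description. The ctrl replicates were at least 2-fold apart for 16 of the 23 (69.6%, against the 12.7% given above), with ctrl replicate 1 higher in 9 and ctrl replicate 2 higher in 7. The Zfp276cko replicates were at least 2-fold apart for 0 of the 23. In libraries of whole cultures, fewer cells of a type and less RNA per cell cannot be told apart.

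**Figure D1:**
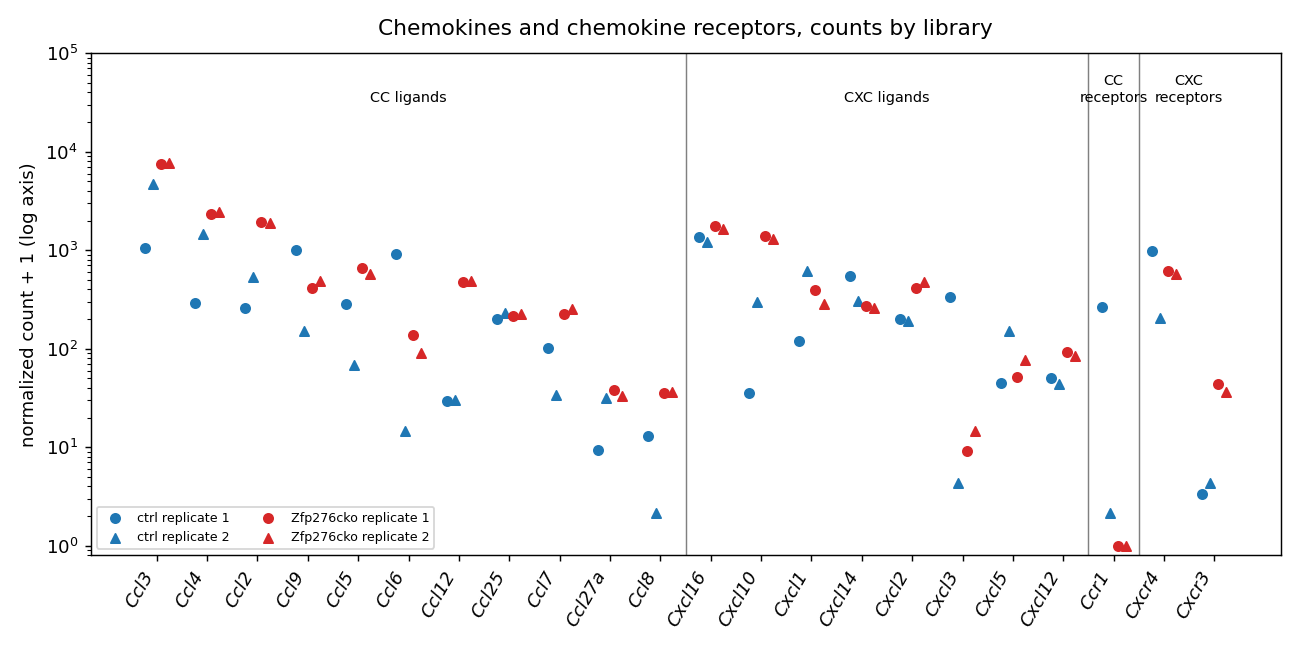
Normalized counts plus 1 (log axis) of 22 chemokine and chemokine receptor genes with a mean of at least 20, with 1 point per library and genes ordered by class and mean. The Zfp276cko points lie close together in each gene, while the ctrl points are at least 2-fold apart in 15 of these genes.

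In edgeR's quasi-likelihood test, 25 members were among the 15766 tested genes. Genes were called at an adjusted p (Benjamini-Hochberg over all tested genes) up to 0.05, provided that they changed by 0.6 or more on the log2 scale and averaged 20 or more normalized counts. By this rule 0 members were called higher and 0 lower, as were 0% of all tested genes in either direction. When p was left unadjusted and the other thresholds were kept, 8 members were higher (32.0% of the 25, against 5.11% of all tested genes) and 0 were lower (against 3.02%). The 8 were Ccl2, Ccl7, Ccl8, Ccl12, Cxcl2, Cxcl10, Cxcl12 and Cxcr3. Of these, Ccl8 and Cxcr3 passed the filter on low counts only through the Zfp276cko libraries, in which they are high, so their p-values and their place in these counts are a description. DESeq2, the tool of the study, gave an adjusted p for 26 members and called 5 higher (Ccl2, Ccl7, Ccl12, Cxcl2 and Cxcr3) and 0 lower, against 2.80% and 2.11% of its 15896 genes. With ctrl replicate 1 left out, edgeR's quasi-likelihood test called 14 members higher and 2 lower (10.2% and 5.76% of all genes then tested). With ctrl replicate 2 left out, it called 13 higher and 7 lower (10.8% and 7.77%). The members called higher in both of these fits numbered 11, made up of the 8 genes above and Ccl3, Ccl4 and Ccl5, where 4.36% of all genes tested in both were called higher in both. Both fits use the same Zfp276cko libraries. In these fits a genotype holds 1 library, which is assumed to vary like the other genotype. That did not hold here, since 12.7% of genes were 2-fold or more apart within ctrl and 0.307% within Zfp276cko. The calls of these 2 fits, and the genes they share, are therefore a description only. With either Zfp276cko library left out, 0 genes in all were called, members included. The median log2 fold change of the 25 tested members was 0.82, against −0.00125 over all tested genes, and since the filter can pass a gene through the genotype in which it is high, this median is a description only. With 2 libraries against 2, the smallest two-sided p of an exact permutation test is 0.333.

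The monocyte chemoattractant group (Ccl2, Ccl7, Ccl8 and Ccl12) differed in the same direction throughout. Ccl2, Ccl7 and Ccl12 draw monocytes through Ccr2, whereas Ccl8 of the mouse is known chiefly for acting on Ccr8. In all 4, either Zfp276cko library exceeded either ctrl library. Ccl12 (chromosome 11 of mm10, 82101845 to 82103400) had 28.5 and 29.3 normalized counts in ctrl OGCs, compared with 478 and 487 in Zfp276cko OGCs. Its ctrl replicates, unlike those of most members, were nearly level, and the groups were far apart. The log2 fold change was 4.06 ± 0.19 (SE), where edgeR's quasi-likelihood test gave an adjusted p of 0.0845 and DESeq2 one of 3.03e-32. It was between 4.04 and 4.07 with each library left out in turn. Ccl2 (chromosome 11, 82035571 to 82037453) had 255 and 539 normalized counts in ctrl OGCs, compared with 1910 and 1878 in Zfp276cko OGCs, so that the genotypes differed by more than the ctrl replicates did. Its log2 fold change was 2.25 ± 0.38 (SE), with an adjusted p of 0.145 from edgeR and 4.15e-07 from DESeq2.

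Ccl7 and Ccl8 were lower in ctrl replicate 2 than in ctrl replicate 1. Ccl7 (chromosome 11, 82045712 to 82047525) had 101 and 32.6 normalized counts in ctrl OGCs, compared with 226 and 251 in Zfp276cko OGCs. Its log2 fold change was 1.84 ± 0.58 (SE), with an adjusted p of 0.272 from edgeR and 0.0398 from DESeq2. It was 2.87 with ctrl replicate 1 left out and 1.23 with ctrl replicate 2 left out. Ccl8 (chromosome 11, 82115185 to 82116799) was a rare transcript with 10 and 1 raw counts in ctrl OGCs, compared with 38 and 41 in Zfp276cko OGCs. Its log2 fold change of 2.42 ± 0.86 (SE), with an adjusted p of 0.312 from edgeR and 0.295 from DESeq2, was 1.53 with ctrl replicate 2 left out and 4.81 with ctrl replicate 1 left out, where the other ctrl library holds 1 count. Ccr2, the receptor of Ccl2, Ccl7 and Ccl12, was close to absent, with 4 and 0 raw counts in ctrl OGCs, compared with 5 and 4 in Zfp276cko OGCs, and was picked for its role with its values in view. Ccl11, which lies between Ccl7 and Ccl12, had at most 3 counts in any library.

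Ccl3, Ccl4 and Ccl5, which draw monocytes and T cells, included the most abundant members. Per transcript length, Ccl3 had 57.7 and 260 RPKM (reads scaled to exon length and library size) in ctrl OGCs, compared with 409 and 427 in Zfp276cko OGCs, the highest level of any member in all 4 libraries. Ccl3 (chromosome 11, 83647844 to 83649355) had 1046 and 4717 normalized counts in ctrl OGCs, compared with 7412 and 7733 in Zfp276cko OGCs. Ccl4 (chromosome 11, 83662584 to 83664683) had 289 and 1476 in ctrl OGCs, compared with 2319 and 2413 in Zfp276cko OGCs. Both genes were lowest in ctrl replicate 1, which held less than ctrl replicate 2 by more than the Zfp276cko cells exceeded the latter. Their log2 fold changes were 1.39 ± 0.73 and 1.42 ± 0.77 (SE), where edgeR gave adjusted p-values of 0.445 and 0.459 and DESeq2 gave 0.619 and 0.647. Without ctrl replicate 1 they were 0.68 for both genes, and without ctrl replicate 2 they were 2.84 and 3.02.

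Ccl5 showed the opposite order of the ctrl replicates. It (chromosome 11, 83525778 to 83530518) had 283 and 67.5 normalized counts in ctrl OGCs, compared with 652 and 577 in Zfp276cko OGCs. The log2 fold change was 1.81 ± 0.70 (SE), with an adjusted p of 0.336 from edgeR and 0.0702 from DESeq2. Leaving out ctrl replicate 1 gave 3.18 and leaving out ctrl replicate 2 gave 1.11. Direction thus held in all 3 genes against either ctrl library, while the size depended on which of them was used.

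The ligands of Cxcr3 (Cxcl9, Cxcl10 and Cxcl11) are known targets of interferons and draw activated T cells. Of these, Cxcl10 alone was abundant. It (chromosome 5, 92346638 to 92348889) had 34.4 and 295 normalized counts in ctrl OGCs, compared with 1394 and 1307 in Zfp276cko OGCs. Its groups did not overlap, but the ctrl replicates were 8.45-fold apart. The log2 fold change was 3.03 ± 0.97 (SE), with an adjusted p of 0.280 from edgeR and 0.186 from DESeq2. Against ctrl replicate 2 alone it was 2.20, and against ctrl replicate 1 alone 5.27. The whole of Cxcl10 lies within Art3 on the opposite strand, and Art3 had between 0 and 10 counts per library. Cxcl11 (chromosome 5, 92359544 to 92365485), which Art3 also spans, had 1 and 14 raw counts in ctrl OGCs, compared with 28 and 19 in Zfp276cko OGCs, and its log2 fold change of 1.27 ± 0.98 (SE), with an adjusted p of 0.587 from edgeR, was 0.39 against ctrl replicate 2 alone and 3.98 against ctrl replicate 1 alone. Cxcl9, which was picked with its values in view, had 1 and 2 raw counts in ctrl OGCs, compared with 9 and 7 in Zfp276cko OGCs, a ratio of 4.07 (exact 95% interval 1.16 to 21.8, which covers counting error only).

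Cxcr3 itself (chromosome X, 101731535 to 101734269) had 2 and 3 raw counts in ctrl OGCs, compared with 47 and 41 in Zfp276cko OGCs. The ratio of the depth-scaled counts was 13.4 (exact 95% interval 5.54 to 42.4, counting error only). Both ctrl libraries were at or under 3 counts, and both Zfp276cko libraries were well above. The log2 fold change was 3.70 ± 0.42 (SE), with an adjusted p of 0.113 from edgeR and 0.00441 from DESeq2. Cxcr3 is best known from T cells, and here Cd3d, Cd3e, Cd3g and Cd2 had at most 1 count in any library. Transcripts of microglia and other cells were present, as given above. Which cells held the Cxcr3 transcripts was not tested.

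The ligands of Cxcr2 (Cxcl1, Cxcl2, Cxcl3 and Cxcl5), which draw neutrophils, did not move as a group. Cxcl2 (chromosome 5, 90903871 to 90905938) had 197 and 191 normalized counts in ctrl OGCs, compared with 417 and 470 in Zfp276cko OGCs. Its replicates were close in either genotype, and its log2 fold change was 1.19 ± 0.16 (SE), with an adjusted p of 0.123 from edgeR and 9.84e-05 from DESeq2. Cxcl1 (chromosome 5, 90891241 to 90893115) had 119 and 621 in ctrl OGCs, compared with 396 and 284 in Zfp276cko OGCs, so that the Zfp276cko libraries lay between the ctrl libraries. Cxcl5 (chromosome 5, 90759360 to 90761624) had 43.9 and 152 in ctrl OGCs, compared with 50.7 and 76.5 in Zfp276cko OGCs, again between them.

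Cxcl3 (chromosome 5, 90786103 to 90789600) had 331 normalized counts in ctrl replicate 1 and 3.38 in ctrl replicate 2, against 8.14 and 13.7 in Zfp276cko cells. It was high in a single library. Its log2 fold change of −3.91 ± 1.93 (SE), with an adjusted p of 0.422 from edgeR, turned to 1.67 without ctrl replicate 1. Cxcl1, Cxcl2 and Cxcl3, which hold identical NF-kB letters in their promoters, each had a different order of the libraries. A part of NF-kB in these values was not tested. Cxcr2 and Cxcr1, their receptors, had at most 1 count in any library and were picked for their role with their values in view.

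**Figure D2:**
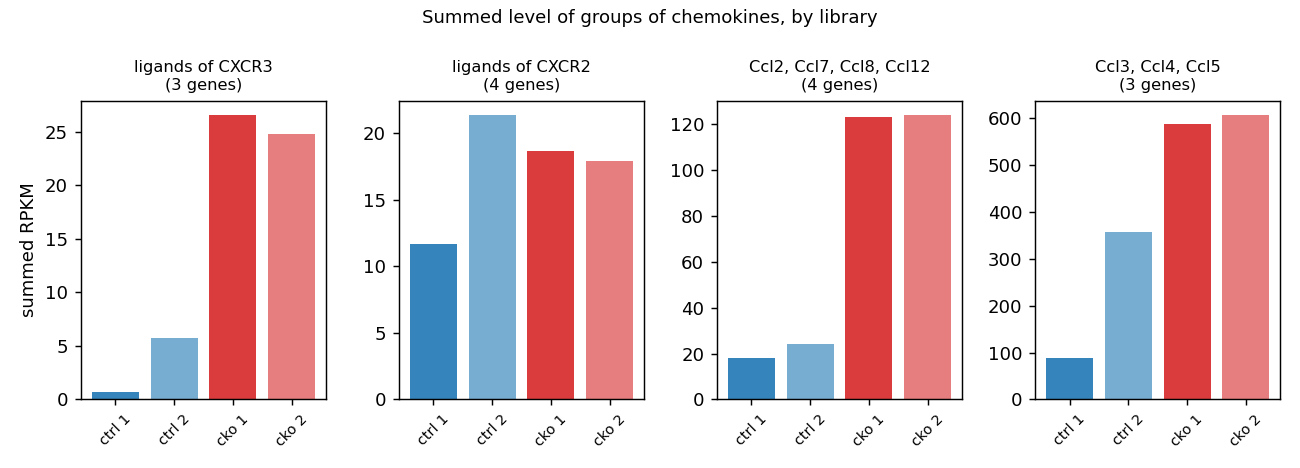
Level of 4 groups of chemokines, as summed RPKM (reads scaled to exon length and library size, vertical axes from 0, each with its own range), with 1 bar per library. The ligands of CXCR3 reach 26.6 and 24.8 in Zfp276cko against 0.676 and 5.74 in ctrl libraries, Ccl2, Ccl7, Ccl8 and Ccl12 together reach 123 and 124 against 18 and 24.1, and Ccl3, Ccl4 and Ccl5 together reach 587 and 607 against 88.6 and 358, while the ligands of CXCR2 lie between the ctrl libraries at 18.7 and 17.9 against 11.7 and 21.4.

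Ccl6 and Ccl9, ligands of Ccr1 made by myeloid cells, were high in ctrl replicate 1. Ccl6 (chromosome 11, 83587882 to 83593087) had 921 and 13.5 normalized counts in ctrl OGCs, compared with 138 and 88.5 in Zfp276cko OGCs. Ccl9 (chromosome 11, 83572919 to 83578636) had 1001 and 152 in ctrl OGCs, compared with 413 and 485 in Zfp276cko OGCs. In both genes the Zfp276cko libraries lay between the ctrl libraries. Ccr1 (chromosome 9, 123962124 to 123968692), their receptor, had 222 and 1 raw counts in ctrl OGCs, compared with 0 and 0 in Zfp276cko OGCs. Zfp276cko cells thus lay below both ctrl libraries, but ctrl replicate 2 differed from them by 1 count. Ccr1 did not pass the filter of edgeR, and its adjusted p from DESeq2 was 0.283.

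Other transcripts were high in ctrl replicate 1 alongside these genes. Csf1r, the receptor that maintains microglia and macrophages, had 11409 and 1850 normalized counts in ctrl OGCs, compared with 3085 and 3016 in Zfp276cko OGCs, and Il1b had 896 and 59.6 against 92.3 and 113. The markers of fibroblasts and mural cells summed to 5662 in ctrl replicate 1, as given above. Their part in the values of Ccl6, Ccl9, Cxcl3 and Ccr1 was not tested. Of the 12 microglial markers, 11 were higher in ctrl replicate 1 than in ctrl replicate 2. The exception was Aif1, with 1248 and 3204 normalized counts.

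Cxcl16, Cxcl12, Cxcl14, Ccl25 and Ccl27a are ligands made also outside inflammation, and their log2 fold changes lay between −0.68 and 0.92. Cxcl16 (chromosome 11, 70453983 to 70459984), a membrane-bound ligand of Cxcr6, had 1351 and 1209 normalized counts in ctrl OGCs, compared with 1752 and 1622 in Zfp276cko OGCs, a log2 fold change of 0.40 ± 0.11 (SE), with an adjusted p of 0.224 from edgeR. Cxcl12 (chromosome 6, 117168535 to 117181367), the ligand of Cxcr4, had 49.9 and 42.8 in ctrl OGCs, compared with 92.3 and 83.3 in Zfp276cko OGCs, a log2 fold change of 0.92 ± 0.26 (SE), with an adjusted p of 0.237 from edgeR. Both genes had close replicates and groups that did not overlap.

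Cxcl14 (chromosome 13, 56288643 to 56296551) was the only ligand with a mean of at least 20 for which both Zfp276cko libraries were the lower ones, at 271 and 259 normalized counts against 543 and 307. Its log2 fold change of −0.68 ± 0.32 (SE), with an adjusted p of 0.401 from edgeR, was −0.21 without ctrl replicate 1. Ccl25 (chromosome 8, 4325210 to 4360020), a ligand of Ccr9, had 199 and 230 in ctrl OGCs, compared with 214 and 225 in Zfp276cko OGCs, and its log2 fold change of 0.03 had a standard error of 0.18. Ccl27a (chromosome 4, 41769467 to 41774247), a ligand of Ccr10, had 8.31 and 30.4 in ctrl OGCs, compared with 37.1 and 31.8 in Zfp276cko OGCs, where the lower Zfp276cko library barely exceeded ctrl replicate 2.

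Cxcr4 (chromosome 1, 128588199 to 128592293), the receptor of Cxcl12, was the most abundant Ccr or Cxcr gene per transcript length in every library. This ranking leaves out Cx3cr1. It had 988 and 205 normalized counts in ctrl OGCs, compared with 607 and 577 in Zfp276cko OGCs, with the latter between the ctrl libraries. Its log2 fold change was −0.01 ± 0.75 (SE), with an adjusted p of 0.997 from edgeR. It was −0.75 against ctrl replicate 1 alone and 1.53 against ctrl replicate 2 alone. A difference between the genotypes was thus not detectable, because the ctrl replicates bracketed the Zfp276cko cells.

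**Figure D3:**
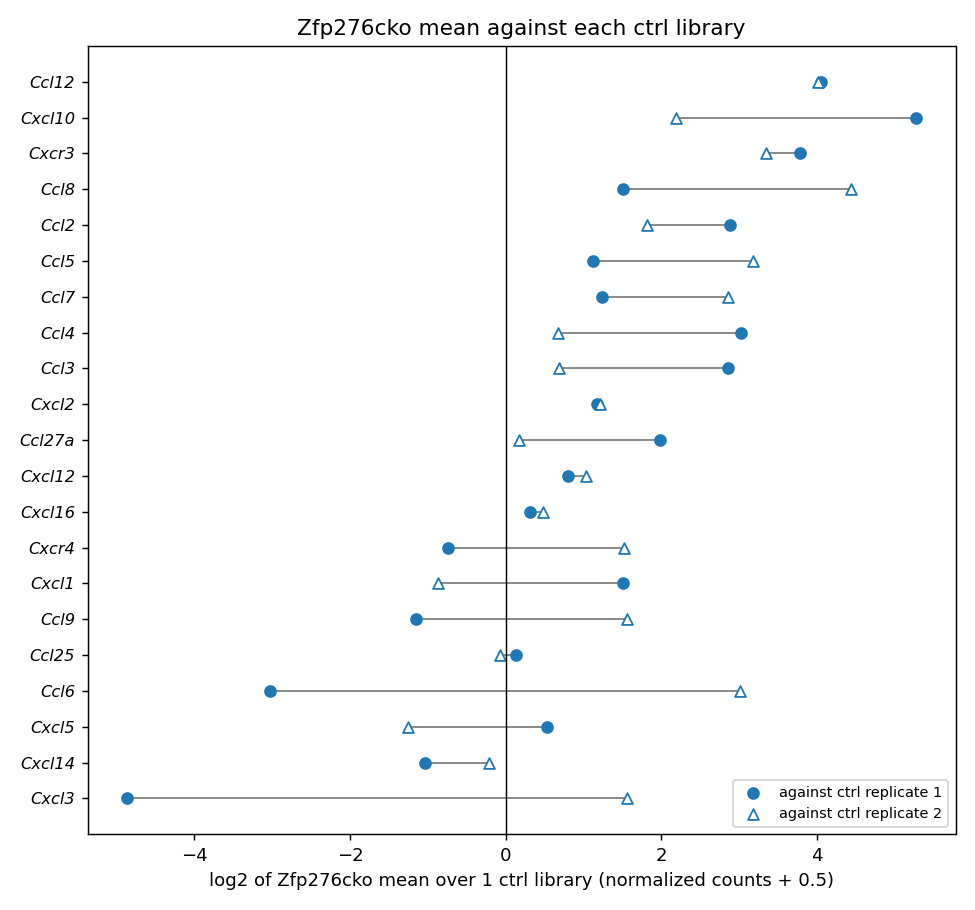
Log2 of the mean of the Zfp276cko libraries over a single ctrl library (horizontal axis, normalized counts plus 0.5), for ctrl replicate 1 (filled circles) and ctrl replicate 2 (open triangles), in 21 genes with a mean of at least 20, leaving out Ccr1. Both symbols lie right of 0 in 13 genes, and in Ccl12 they nearly coincide at 4.06 and 4.02, while they lie on opposite sides of 0 in Ccl6 at −3.02 and 3.02. The symbols of Cxcr3 and the triangles of Ccl8 and Cxcl3 rest on 3 counts or fewer in the ctrl library.

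Of the 4 members with at least 10 counts in a library and a mean under 20, Cxcl11 is given above. Ccl22, a ligand of Ccr4, had 13 and 7 raw counts in ctrl OGCs, compared with 6 and 13 in Zfp276cko OGCs. Cxcl13, a ligand of Cxcr5, had 19 and 2 against 4 and 5, and Ccr3, a receptor known from eosinophils, had 3 and 28 against 13 and 8. In these 3 genes the groups overlapped. The remaining 32 entries had at most 9 counts in any library.

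Most ligands lie in 2 gene clusters, and neighbours shared a pattern only in part. On chromosome 11, Ccl2, Ccl7, Ccl12 and Ccl8 lie within 79.6 kb from start to start, and all 4 were above both ctrl libraries. The second group of this chromosome begins 1490 kb from the start of Ccl2 with Ccl5, followed by Ccl9, Ccl6, Ccl3 and Ccl4. There Ccl9 and Ccl6, which are 9.25 kb apart, were highest in ctrl replicate 1, whereas Ccl3 and Ccl4, which are 13.2 kb apart, were lowest in it. On chromosome 5, Cxcl1 and Cxcl2 are 10.8 kb apart, and the Zfp276cko libraries lay between the ctrl libraries in Cxcl1 and above both in Cxcl2. Ligands of a cluster arose by duplication, and reads that map to more than 1 of them were not counted.

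**Figure D4:**
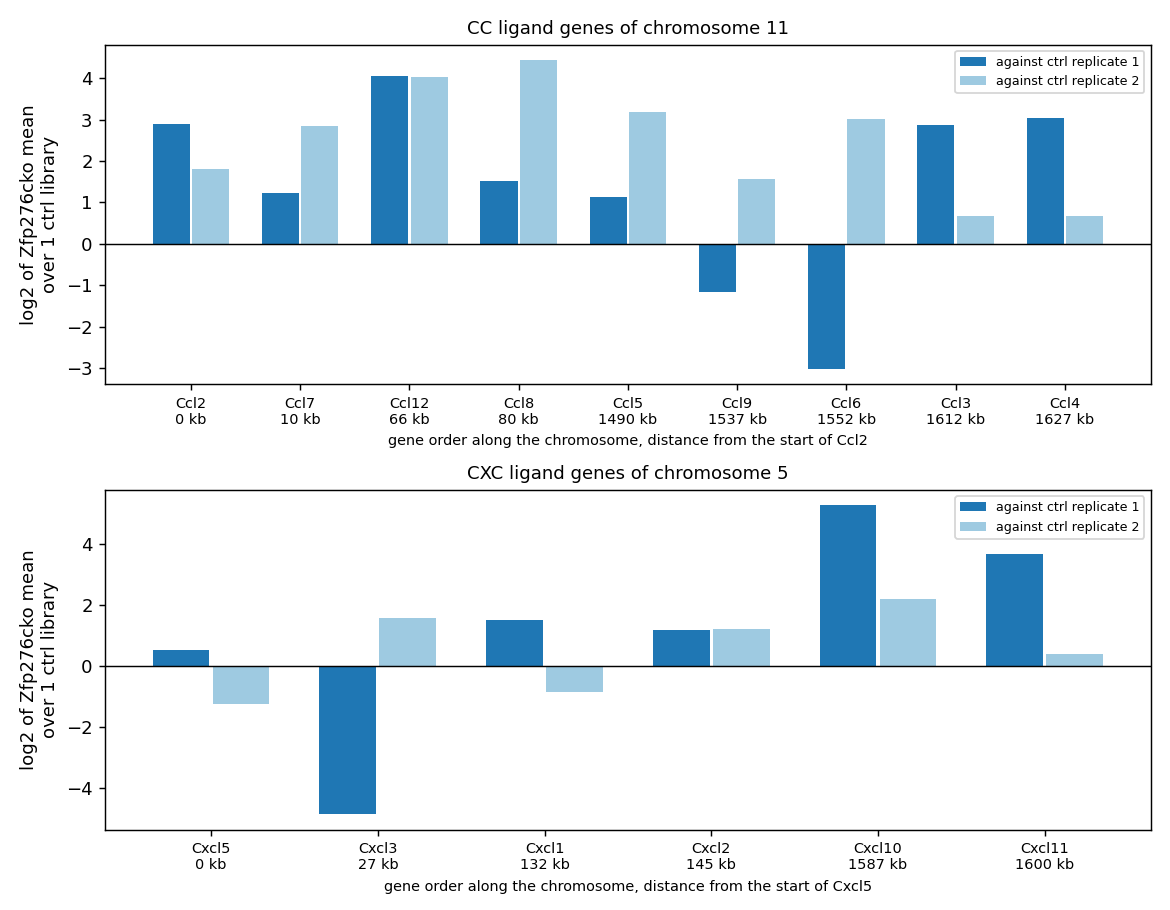
Log2 of the mean of the Zfp276cko libraries over ctrl replicate 1 (dark bars) and ctrl replicate 2 (light bars), with normalized counts plus 0.5, for the CC ligand genes of chromosome 11 (top) and the CXC ligand genes of chromosome 5 (bottom) with at least 10 counts in a library. Genes stand in chromosomal order with their distance in kb from the first gene, Cxcl13 is left out for its distance, and values of Ccl8 and Cxcl3 against ctrl replicate 2 and of Cxcl11 against ctrl replicate 1 rest on 3 counts or fewer. All bars of Ccl2, Ccl7, Ccl12 and Ccl8 are positive, while the bars of Ccl9 and Ccl6 point in opposite directions.

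A list of 22 further genes of the chemokine system held other ligands, atypical receptors and parts of the signalling chain. Of these, 16 had a mean of at least 20, with both Zfp276cko libraries on top in 7 and at the bottom in 2. Over all genes at this level the shares were the 26.4% and 24.8% given above. By edgeR's quasi-likelihood test 0 of them were called in either direction. DESeq2 called 1, Ccrl2, higher and 0 lower, against 2.80% and 2.11% of its 15896 genes. Ccrl2, an atypical receptor that binds chemerin, had 146 and 51.8 normalized counts in ctrl OGCs, compared with 372 and 376 in Zfp276cko OGCs, a log2 fold change of 1.92 ± 0.53 (SE), with an adjusted p of 0.234 from edgeR and 0.00971 from DESeq2. The other 6 that lay above were Rac2, Arrb2, Cx3cr1, Dock2, Pik3cg and Grk3, with log2 fold changes between 0.13 and 1.03. Cx3cr1, the fractalkine receptor of microglia, had 2290 and 2369 normalized counts in ctrl OGCs, compared with 3095 and 2966 in Zfp276cko OGCs, a log2 fold change of 0.38 ± 0.09 (SE), with an adjusted p of 0.189 from edgeR. Its ligand Cx3cl1 had 429 and 572 in ctrl OGCs, compared with 567 and 594 in Zfp276cko OGCs, with overlapping groups.

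Lower in both Zfp276cko libraries were Ackr1, an atypical receptor that takes up chemokines, and Cd74, the invariant chain of MHC class II and a receptor of Mif. Ackr1 had 131 and 192 normalized counts in ctrl OGCs, compared with 88.7 and 67.0 in Zfp276cko OGCs (log2 fold change −1.05, SE 0.32, adjusted p = 0.257 from edgeR). Cd74 had 84.3 and 24.8 against 15.4 and 16.3. Pf4, a CXC ligand of platelets and macrophages, had 628 and 4.50 in ctrl OGCs, compared with 44.3 and 37.8 in Zfp276cko OGCs and so followed the order of Ccl6. Ackr3, Arrb1, Grk2, Gnai2 and Mif had overlapping groups, with log2 fold changes between −0.19 and 0.26.

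Cytokines known to induce chemokines were present at different levels. Ifnb1, which encodes interferon-beta, had 1 and 0 raw counts in ctrl OGCs, compared with 28 and 26 in Zfp276cko OGCs, a ratio of 41.2 (exact 95% interval 7.09 to 1657, counting error only). Ifng had 1 count in a single library. Tnf had 275 and 2099 normalized counts in ctrl OGCs, compared with 2384 and 2496 in Zfp276cko OGCs, and was lowest in ctrl replicate 1 like Ccl3, Ccl4 and Cxcl10. Il6 had 15.4 and 10.1 in ctrl OGCs, compared with 38.0 and 40.4 in Zfp276cko OGCs, with groups that did not overlap. The adjusted p from edgeR was 0.644 for Tnf and 0.186 for Il6. Il1b went the other way, with 896 and 59.6 against 92.3 and 113 and a log2 fold change of −2.22. Its Zfp276cko libraries lay between the ctrl libraries. The part of these cytokines in the values of the chemokines was not tested.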

How the data were processed

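RNA-Seq counts came from 4 libraries, 2 per genotype. The authors mapped reads with STAR (2.5.4a) to mm10 and deposited raw counts of uniquely mapped reads per Ensembl gene, made with HTSeq per the methods, while the submitters' processing notes name featureCounts (1.5.1). Library preparation kept strand, and the strand setting of the counting is not given in the sources used here. Besides Art3, genes on the opposite strand overlapped Ccl6 (E230016K23Rik, 5206 bases), Ccl2 (Gm17268, 1883), Cxcl11 (Gm2673, 1582), Cxcl16 (Zmynd15, 552), Ccl25 (Elavl1, 204) and Ccl27a (Il11ra1, 8). Their part in the counts was not tested. No further normalization or filter was applied to the deposited counts. Columns of per-sample values left unused came to 0.

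Members were matched by symbol. Genes kept by filterByExpr were normalized with TMM and compared by the quasi-likelihood test of edgeR (4.0.16) in R (4.3.3), with Benjamini-Hochberg adjustment over all 15766 tested genes. DESeq2 (1.42.0) and limma (3.58.1) served as alternatives. The thresholds on p (0.05), log2 fold change (0.6) and mean (20) have the sizes used in the study. The methods were tested on simulated data with the same spread in both genotypes, so the unequal spread of these libraries was not covered. Members, gene lists and tests were chosen with earlier results of these data known. Named with values were members with a mean of at least 20 normalized counts, and those with at least 10 counts in a library and groups that did not overlap. Cytokines (Ifnb1, Ifng, Tnf, Il1b, Il6) and further genes of the chemokine system at that mean were named too. Positions and exon lengths are from GENCODE M21 (GRCm38) and promoters from RefSeq (GRCm38.p6), where the window ran in transcript direction for 34 of 37 symbols. Replicates are independent preparations of 3 mice each. Ratios between ctrl replicates were taken after adding 0.5. Alternatives were other size factors, filters, tests and thresholds, a replicate block and leaving out each library. A few genes that these rules cover are counted but not reported here.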

Additional observations from a re-analysis of the deposited data

How the results depend on the processing

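Of 22 named members with a log2 fold change, 15 kept their direction under every alternative run for them, which came to 11, or to 10 for Ccl8, Ccl27a, Cxcl11 and Cxcr3, where at least 10 counts in every library left no value. Against 0 called members in edgeR's quasi-likelihood test, the number called higher was 1 (Ccl12) of 8 such genes in all without a filter on low counts, 5 of 445 with DESeq2, 4 of 428 with edgeR's likelihood ratio test, 2 (Ccl2 and Ccl12) of 133 with limma voom and quality weights per genotype, and 8 of 806 with an unadjusted p. With each library left out in turn it was between 0 and 14, and the number called lower between 0 and 7. The fits without a ctrl replicate assume that the remaining one varies like the Zfp276cko libraries. The ctrl libraries differed from each other far more often, so calls from these fits are a description. The log2 fold changes of Ccl6, Ccl9, Cxcl3 and Cxcr4 were positive without ctrl replicate 1 and negative without ctrl replicate 2. Those of Cxcl1, Cxcl5 and Ccl25 went the other way. DESeq2 without ctrl replicate 1, chosen after the data were seen, called 13 members of 1143 genes higher and 2 of 637 lower, and without ctrl replicate 2 it called 10 of 1167 higher and 7 of 1023 lower. Of the further genes of the chemokine system, DESeq2 and the likelihood ratio test called 1 higher, and the unadjusted p 1 higher and 1 lower (Ackr1). Of these 22 genes, 16 were tested by edgeR. At an unadjusted p, 5.11% of all tested genes were higher and 3.02% lower, so 1 of 16 does not show an excess. Leaving out a library gave between 0 and 3 in either direction, which is a description only, as for the members.

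The log2 fold change turned sign in 7 members. For Cxcr4 it was 0.0134 without a filter, 0.0053 with at least 10 counts in every library, 0.416 with limma voom and 0.376 with a replicate block. For Cxcl1 it was 0.277 with limma voom and 0.275 with the replicate block, for Ccl9 0.225 and 0.167, and for Ccl6 0.0138 with limma voom. With each library left out it ranged from −0.752 to 1.532 for Cxcr4, −0.870 to 1.502 for Cxcl1, −1.169 to 1.565 for Ccl9, −3.04 to 3.056 for Ccl6, −4.909 to 1.672 for Cxcl3, −1.249 to 0.523 for Cxcl5 and −0.0642 to 0.124 for Ccl25. The replicate block called 0 members, and across 14324 genes replicate differences correlated by 0.0067 between genotypes. Since the Zfp276cko replicates differed little, this value cannot show whether replicates of the same number were prepared together. The cause of these changes was not tested. The number of libraries, 2 per genotype, limits every comparison.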
